A study of Mus musculus with 14 samples.

Results

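Acyl-CoA thioesterases cut a fatty acyl-CoA into a free fatty acid and coenzyme A. The 6 genes of this family described here are Acot1, Acot2, Acot7, Acot9, Acot11 and Acot13, out of 24972 genes in the table of gene values. They were taken as a named list. Acot1 was put on it because its value fell more steeply than nearly all others with aortic constriction under both vectors, so its fall is described and not tested. All 6 were abundant enough to be tested among 13258 genes.

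RNA sequencing measured polyadenylated transcripts in ventricles of male C57BL/6N mice. The mice were operated at 9 to 10 weeks of age, with a sham operation or with aortic constriction (TAC), in which a narrowed aorta loads the left ventricle with pressure. At 2 weeks, echocardiography picked 30 TAC mice with ejection fractions of 40 to 60% and 10 sham mice with normal function. All of them then received an AAV2/9 vector by tail vein, 1e12 viral genomes in 100 ul, so no group was free of virus. Sham+GFP mice had the sham operation and the vector for GFP, the control protein, and TAC+GFP mice had the constriction and the same vector. Sham+NT and TAC+NT mice had these operations and the vector for JP2NT, an N-terminal piece of junctophilin-2, which ties T-tubules to the sarcoplasmic reticulum in heart muscle cells. Ventricles were taken 8 weeks after surgery, 6 weeks after the injection. The promoter that drives either vector is not given in the sources used here. Because TAC mice were selected by ejection fraction at 2 weeks, the TAC groups stand only for mice with moderate dysfunction at that time. The labels used here give no ejection fraction at collection.

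There were 3 Sham+GFP, 4 TAC+GFP, 3 Sham+NT and 4 TAC+NT libraries, with an estimated 8603370 to 14477800 reads assigned to genes in each. Replicates 1 and 2 of Sham+NT were nearly as close as counting noise allows: the ratio of observed to counting variance over genes with at least 2000 reads was 1.44, against 6.27 to 84.1 in the other 17 pairs within groups. They were averaged and counted as 1 sample, which left 13 samples and n = 2 in Sham+NT. TAC+NT replicate 4 stood apart from the other TAC libraries on the first principal component, at -5.71 where the other 7 lay between 20.2 and 43.1 and the shams between -42.2 and -39.2. Nothing in the labels says that the libraries come from separate mice, so p-values measure only the spread between these samples, which may be technical.

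In heart muscle most acyl-CoA made from long-chain fatty acids is carried into mitochondria and oxidised. Thioesterases work against acyl-CoA synthetases: they release the fatty acid again and return coenzyme A to the free pool of the compartment they sit in. ACOT1 is the cytosolic and ACOT2 the mitochondrial enzyme of the type I family, and both are textbook targets of the fatty acid receptor PPAR alpha. ACOT7, ACOT9, ACOT11 and ACOT13 belong to the unrelated type II family, built on the hotdog fold.

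Acot1 and Acot2 are neighbours on chromosome 12 and near copies of each other, which bears on how their reads are divided. In mm10 with the GENCODE M21 annotation, Acot2 spans 83987861 to 83993873 and Acot1 spans 84009490 to 84018371, both on the plus strand with 15616 bases between them, in a cluster of 6 type I genes over 123.5 kb. Their coding sequences were identical at 95.48% of aligned bases, 1183 of 1239. The longest identical stretch is 273 bases, coding positions 887 to 1159 of Acot1 and 1010 to 1282 of Acot2. It is shown, with no capitals, because a read that falls inside it cannot by itself be placed in either gene. The libraries were paired-end, so the other read of its pair may still place it.
Acot1 and Acot2: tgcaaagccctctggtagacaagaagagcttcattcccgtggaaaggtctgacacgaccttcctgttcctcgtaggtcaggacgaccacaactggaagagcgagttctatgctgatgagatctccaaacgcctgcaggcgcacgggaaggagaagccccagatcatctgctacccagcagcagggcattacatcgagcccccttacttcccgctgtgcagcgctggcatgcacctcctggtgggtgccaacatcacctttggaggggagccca

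Of the 31-base words in the main Acot1 transcript, 59.95% occurred in no other gene and 28.77% also occurred in Acot2. In the main Acot2 transcript, 62.47% occurred in no other gene and 29.78% also occurred in Acot1. The main Acot9 transcript shared 36.88% of its words with Acot10, a gene on chromosome 15 with 97.2% identical coding bases. The main transcripts of Acot7, Acot11 and Acot13 shared none. Salmon, which the submitters' processing notes list, divides shared reads by estimate.

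The bases just before the RefSeq start sites (build GRCm38.p6) are shown for Acot1 and Acot2, the pair whose transcripts fell furthest, and for Acot9, whose transcript rose. Capitals mark 4 motifs, searched on both strands, with no overlap among the matches shown: the CCAAT box with these very letters, the GC box with the letters GGGCGG, the TATA box with the letters TATAAA and the E-box with the letters CACGTG. Read on the minus strand, the CCAAT box appears as ATTGG and the GC box, by the same rule, as CCGCCC.
Acot1 chr12:84009252-84009489, plus strand: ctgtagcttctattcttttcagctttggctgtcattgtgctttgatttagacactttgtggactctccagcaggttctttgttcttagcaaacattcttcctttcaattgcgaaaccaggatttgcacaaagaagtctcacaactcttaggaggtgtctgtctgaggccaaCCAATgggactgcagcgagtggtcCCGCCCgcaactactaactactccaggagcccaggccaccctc
Acot2 chr12:83987611-83987860, plus strand: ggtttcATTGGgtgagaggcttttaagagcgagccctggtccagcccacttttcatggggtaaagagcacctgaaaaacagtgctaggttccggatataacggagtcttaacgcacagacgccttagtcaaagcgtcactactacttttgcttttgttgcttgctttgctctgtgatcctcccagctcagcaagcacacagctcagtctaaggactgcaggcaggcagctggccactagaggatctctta
Acot9 chrX:155262193-155262442, plus strand: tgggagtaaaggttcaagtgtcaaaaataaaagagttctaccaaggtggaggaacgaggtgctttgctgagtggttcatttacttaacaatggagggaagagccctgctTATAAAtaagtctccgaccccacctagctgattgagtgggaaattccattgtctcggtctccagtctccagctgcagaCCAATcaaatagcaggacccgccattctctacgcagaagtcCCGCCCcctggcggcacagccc

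The Acot1 window was cut to 238 bases where an annotated exon begins, so it ends short of the RefSeq start. It holds a CCAAT box 79 bases and a GC box 55 bases before that start. The Acot2 window holds a CCAAT box 244 bases before the start and no other of these motifs. The coding sequences are near copies, but the longest run that the Acot1 and Acot2 windows share is 9 bases. The Acot9 window holds a TATA box at 141 bases, a CCAAT box at 63 bases and a GC box at 22 bases before the start. Over all 32851 RefSeq windows of 250 bases, a CCAAT box occurred in 33.8%, a GC box in 32.7%, a TATA box in 12.4% and an E-box in 6.02%. The nuclear receptor half-site AGGTCA, found in 14% of all windows, and a direct repeat of it with any 1 base between the copies, found in 0.0335%, occurred in none of the windows found for 5 of the 6 members, Acot1, Acot2, Acot7, Acot9 and Acot11. These matches describe letters only. A repeat this rare is missing from nearly any small set of windows, so its absence says nothing about these genes.

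The first comparison asks how pressure overload changed the family under the control vector. Both type I members fell, and among the type II members Acot7 and Acot11 fell, Acot9 rose and Acot13 did not pass the test. Acot1 fell furthest, to between 5.08 and 15.5% of the sham mean. Of the 5 members tested, 3 were lower and 1 was higher in TAC+GFP than in Sham+GFP (limma-trend, Benjamini-Hochberg adjusted p under 0.05). In this comparison 48% of all 13258 genes were called, 24.8% lower and 23.2% higher, so calls were common throughout the table.

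Values are the authors' scaled gene counts, rescaled over all libraries so that the vectors can be compared, and they are not per transcript length, so the levels of different genes are not compared. Acot1, the cytosolic type I enzyme, had values of 283, 284 and 332 in the Sham+GFP libraries. In the TAC+GFP libraries it had 46.4, 42.1, 15.2 and 43.8. The groups do not overlap, and replicate 3 is the lowest of the TAC+GFP libraries. The mean went from 299.6 ± 28.1 (SD, n = 3) to 36.9 ± 14.5 (n = 4), a difference of -3.10 (SE 0.36; 95% interval -3.87 to -2.33) in log2(value + 1), or 8.59-fold lower. This was place 9 from the lowest of 13258 differences. Acot1 rested on an estimated 233 to 394 reads in sham libraries and on 15 to 75 in TAC libraries.

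Acot2, the mitochondrial type I enzyme, had values of 1185, 1175 and 1118.5 in Sham+GFP. In TAC+GFP it had 518, 559, 302 and 419, all below every sham library and lowest again in replicate 3. The mean went from 1159 ± 35.9 (n = 3) to 449.5 ± 115 (n = 4), 2.65-fold lower (log2 difference -1.40, SE 0.16; adjusted p = 1.05e-05). Summed before the log, the pair fell 3.08-fold (log2 difference -1.62, 95% interval -1.99 to -1.26), which does not depend on how reads were divided between them. The Acot1 part of that sum, not corrected for length, was 20.5 ± 2.04% (n = 3) in Sham+GFP and 7.37 ± 1.99% (n = 4) in TAC+GFP; unlike the sum, it depends on that division.

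Acot7 (chromosome 4, 152178134 to 152271855, plus strand) encodes a cytosolic enzyme best known from the brain. It had values of 1002, 1022 and 1033 in Sham+GFP and of 674, 639.8, 493 and 660.2 in TAC+GFP. The lowest TAC value is again that of replicate 3, and no TAC library reached a sham library. Means of 1019 ± 15.3 (n = 3) and 616.9 ± 83.6 (n = 4) put TAC+GFP 1.66-fold lower (log2 difference -0.73, SE 0.10; adjusted p = 3.62e-05).

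Acot11 (chromosome 4, 106744555 to 106804998, minus strand) encodes a long-chain thioesterase with a lipid-binding START domain, known from brown fat. It had values of 576, 595 and 570.2 in Sham+GFP and of 346, 349, 426 and 302 in TAC+GFP. Here replicate 3 is the highest of the TAC+GFP libraries, where it is the lowest for Acot1, Acot2 and Acot7. With means of 580.4 ± 12.9 (n = 3) and 355.7 ± 51.6 (n = 4), TAC+GFP was 1.64-fold lower (log2 difference -0.72, SE 0.16; adjusted p = 0.00221). The gene shares 3738 bases with Fam151a on the opposite strand. The kit marks strand, but whether the counting used it is not given in the sources used here.

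Acot9 (chromosome X, 155262443 to 155297654, plus strand) encodes a mitochondrial enzyme that takes short and long acyl chains. It was the only one of the 5 tested members called higher. Its values were 357, 269.7 and 304 in Sham+GFP and 585, 637, 521 and 530.4 in TAC+GFP, with no overlap. Means of 310.2 ± 43.8 (n = 3) and 568.5 ± 53.9 (n = 4) put TAC+GFP 1.84-fold higher (log2 difference 0.88, SE 0.11; adjusted p = 2.81e-05). Its near copy Acot10 stayed low, with means between 0.29 and 1.00 in the 4 groups.

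Acot13 (chromosome 13, 24817948 to 24831540, minus strand) encodes a small thioesterase attached to mitochondria. Its values were 3495, 3210.4 and 3330.1 in Sham+GFP and 3535, 3769, 4640.4 and 3309.8 in TAC+GFP, and the groups overlap. The mean was 3345 ± 143 (n = 3) in sham and 3813 ± 582 (n = 4) in TAC hearts (log2 difference 0.18, 95% interval -0.07 to 0.43; adjusted p = 0.229).

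**Figure D1:**
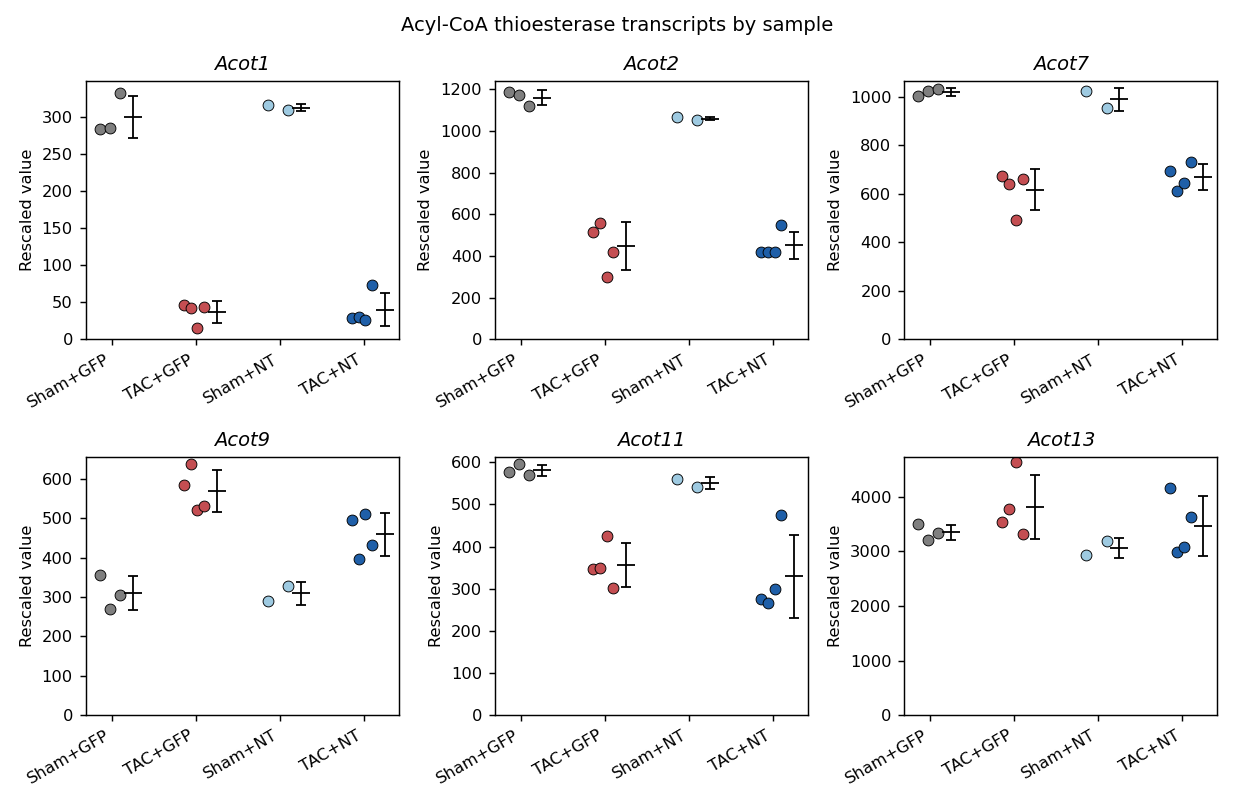
Rescaled value (linear axis from 0) of each of the 6 thioesterase genes in the 13 samples by group; points are samples, the first Sham+NT point being the mean of replicates 1 and 2, and bars are mean ± SD. Acot1, Acot2, Acot7 and Acot11 lie lower and Acot9 higher in every TAC sample than in every sham sample of either vector, while the groups overlap for Acot13.

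The second comparison asks the same under the JP2NT vector. The directions were those seen under GFP: Acot1, Acot2, Acot7 and Acot11 fell and Acot9 rose. Of the 5 members tested, 3 were lower and 1 higher in TAC+NT than in Sham+NT, where 31.8% of all genes were called, 15.7% lower and 16% higher. No library enters both comparisons, but all libraries enter the single model from which the spread was taken.

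Acot1 had values of 328, 303 and 309 in the 3 Sham+NT libraries. It had 29.3, 30.8, 26.6 and 73.8 in TAC+NT, where replicate 4 is by far the highest. The mean went from 312.2 ± 4.87 (n = 2) to 40.1 ± 22.5 (n = 4), 8.34-fold lower (log2 difference -3.06, SE 0.41; 95% interval -3.93 to -2.19), place 3 from the lowest of 13258. Without replicate 4 the log2 difference was -3.39.

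Acot2 had values of 1050.2, 1080.4 and 1055 in Sham+NT and of 419, 421, 418 and 551 in TAC+NT. Replicates 1 to 3 lie within 3 units of each other and replicate 4 lies above them, still far under the shams. The log2 difference was -1.24 (SE 0.18; adjusted p = 0.000299), or 2.36-fold lower. The Acot1 and Acot2 sum was 2.81-fold lower, and the share of Acot1 in it was 22.8 ± 0.15% (n = 2) in Sham+NT and 7.79 ± 2.71% (n = 4) in TAC+NT.

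Acot7 had values of 1040.5, 1007 and 956 in Sham+NT and of 694, 614, 643 and 733 in TAC+NT, with no overlap. It was 1.48-fold lower (log2 difference -0.56, SE 0.11; adjusted p = 0.00202).

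Acot11 had values of 581, 541 and 541 in Sham+NT and of 275, 267, 299.6 and 475 in TAC+NT. Replicate 4 again lies nearest to the shams, at 86.2% of their mean, where the other 3 lie between 48.4 and 54.4%. The fall was 1.72-fold (log2 difference -0.78, SE 0.18; adjusted p = 0.00552), and without replicate 4 the log2 difference was -0.97 (adjusted p = 2.61e-05).

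Acot9 had values of 292, 286 and 329 in Sham+NT and of 496, 397, 511 and 431 in TAC+NT, with every TAC library above every sham library. The mean went from 308.9 ± 28.1 (n = 2) to 458.8 ± 54.1 (n = 4), 1.48-fold higher (log2 difference 0.56, SE 0.13; adjusted p = 0.00481). For this gene replicate 4 lies within the range of the other TAC+NT libraries.

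Acot13 had values of 2912, 2932 and 3181 in Sham+NT and of 4164, 2992, 3081 and 3621 in TAC+NT. The log2 difference was 0.17 (95% interval -0.11 to 0.46; adjusted p = 0.355), and the groups overlap.

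**Figure D2:**
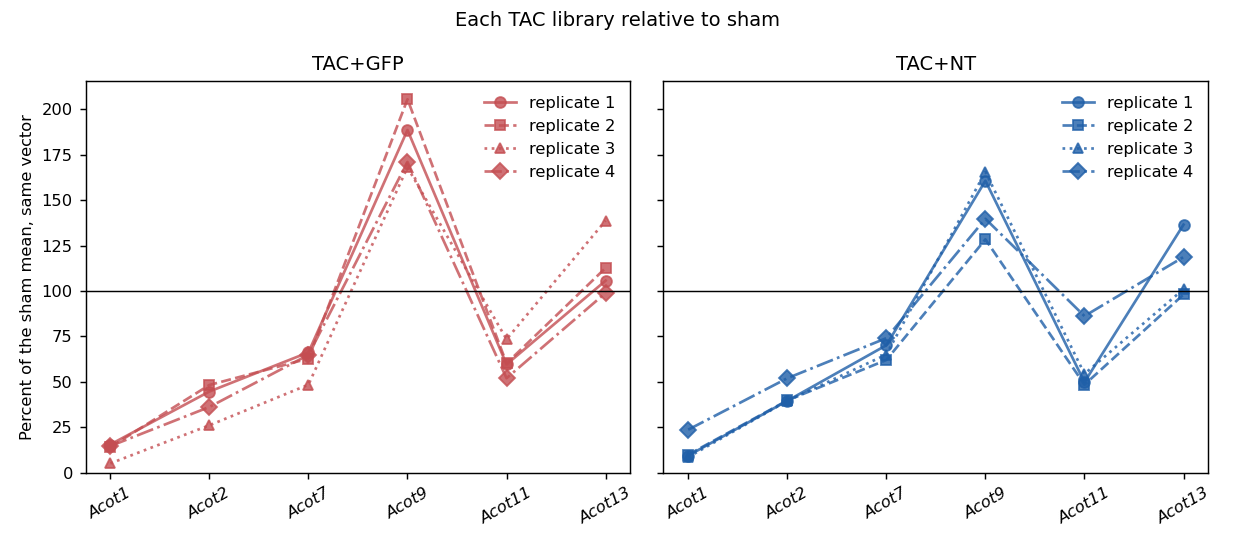
Value of each thioesterase gene in each TAC library as a percentage of the sham mean under the same vector (line at 100), with TAC+GFP on the left and TAC+NT on the right; lines only join the values of a library. TAC+GFP replicate 3 has the lowest Acot1, Acot2 and Acot7 of its group, at 5.08, 26.1 and 48.4%, and TAC+NT replicate 4 has the highest Acot1, Acot2, Acot7 and Acot11 of its group, at 23.6, 51.9, 74.0 and 86.2%.

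The third comparison asks whether the JP2NT vector changed the family in overloaded hearts. None of the 6 members passed the test between TAC+NT and TAC+GFP, where 6.14% of all genes were called (limma-trend), 2.74% higher and 3.4% lower; at an unadjusted p under 0.05 there was 1 member, Acot9, beside 2965 of the 13258 genes. Acot9 was 1.24-fold lower with JP2NT (log2 difference -0.31, 95% interval -0.54 to -0.09; adjusted p = 0.0914, and 0.0297 to 0.274 over the alternatives). The TAC+NT values of Acot9, 397 to 511, lie below the TAC+GFP values, 521 to 637, in 4 of 4 libraries, and above the sham values, 269.7 to 357. The adjusted p of 0.0297 came with the values as deposited, on which the median gene was lower by -0.08 with JP2NT.

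For Acot1 the log2 difference between TAC+NT and TAC+GFP was 0.11 (95% interval -0.61 to 0.82; adjusted p = 0.889). Leaving out TAC+GFP replicate 3 turned it to -0.26, and leaving out TAC+NT replicate 4 turned it to -0.23. For Acot2 it was 0.04 (95% interval -0.28 to 0.36; adjusted p = 0.915), and it turned to -0.14 and -0.06 without these libraries. The Acot1 and Acot2 sum differed by 0.04 (two-sided exact permutation p = 0.8, where 4 against 4 samples allow no p below 0.0286). Acot1 was picked for a steep fall under both vectors, which favours alike values in both TAC groups. Its p-value therefore decides nothing, and the sum shares this limit through its Acot1 part. Acot7 differed by 0.13 (95% interval -0.07 to 0.32; adjusted p = 0.443), Acot11 by -0.14 (-0.46 to 0.18; adjusted p = 0.625) and Acot13 by -0.14 (-0.37 to 0.09; adjusted p = 0.499). Leaving out TAC+NT replicate 4 moved the Acot11 difference to -0.33 (adjusted p = 0.0588).

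In sham hearts the vectors were compared over 3 against 2 samples. None of the 6 members was called by limma-trend, nor was any other of the 13258 genes (0%), with 581 genes and no member at an unadjusted p under 0.05. Fitted on these groups alone, 2 genes were called. The member differences lay between -0.13 for Acot13 (95% interval -0.43 to 0.17) and 0.06 for Acot1 (-0.86 to 0.98). The SD of Acot1 in log2 was 0.13 in Sham+GFP and 0.02 in Sham+NT, but 0.74 in TAC+GFP and 0.67 in TAC+NT. With 1 spread for all groups, the Acot1 interval is therefore too wide between the shams and too narrow between the TAC groups.

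The interaction asks whether the effect of TAC differed between the vectors. None of the 6 members was called, against 0.0754% of all genes (0.0377% in each direction), and none had an unadjusted p under 0.05. For Acot1, picked on both TAC effects, which favours alike falls, the difference of the falls was 0.04 (95% interval -1.12 to 1.20). For Acot9 it was -0.31 (95% interval -0.68 to 0.06; adjusted p = 0.52), the furthest from 0 of the 6.

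**Figure D3:**
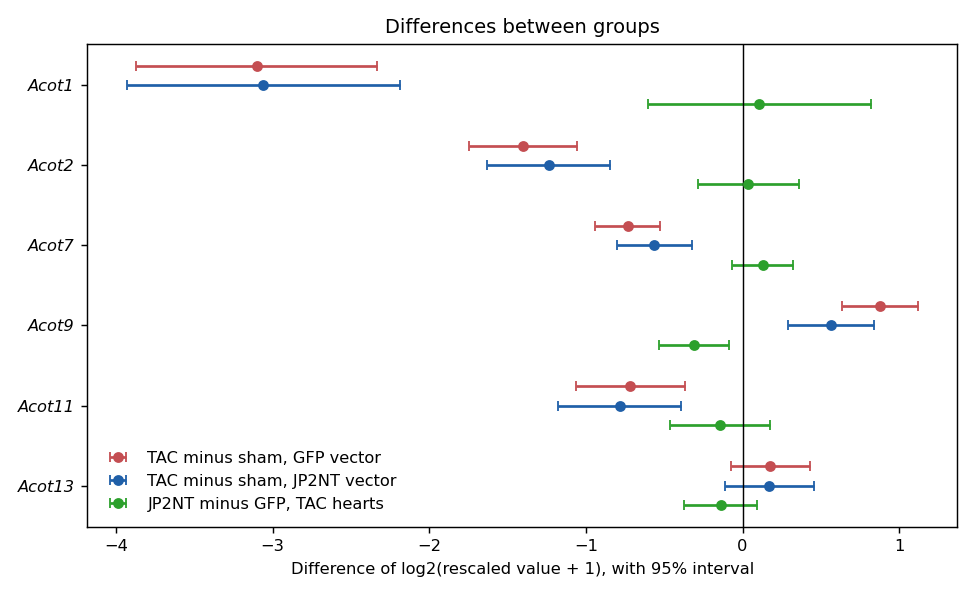
Difference of log2(value + 1) for each thioesterase gene with its 95% interval from limma-trend, for TAC minus sham under each vector and for JP2NT minus GFP in TAC hearts. The TAC intervals of Acot2, Acot7, Acot9 and Acot11 leave out 0 under both vectors, and those of Acot1, picked for its fall, are drawn as a description; among the vector intervals only that of Acot9, -0.54 to -0.09, leaves out 0, with an adjusted p of 0.0914.

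Of 13 other acyl-CoA thioesterase genes, 7 were abundant enough to test, and 2 were lower with TAC under each vector, where 24.8% of all genes were lower under GFP and 15.7% under JP2NT. Acot3, another type I gene of the chromosome 12 cluster, encodes a peroxisomal enzyme. It went from 23.5 ± 6.63 (n = 3) to 1.64 ± 1.25 (n = 4) under GFP (adjusted p = 8.67e-05) and from 20.8 ± 0.90 (n = 2) to 2.10 ± 1.10 (n = 4) under JP2NT (adjusted p = 0.00195). Its TAC values are worth a few reads, and 11.86% of the words of the Acot1 transcript also occur in Acot3, so its fold is not given. Ppt2, a lysosomal thioesterase, went from 733 ± 34.9 to 480 ± 47.4 under GFP (log2 difference -0.61; adjusted p = 8.06e-05) and from 685 ± 33.2 to 464 ± 46.2 under JP2NT (log2 difference -0.57; adjusted p = 0.00122).

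The other 5 tested were not called. Them4, a mitochondrial thioesterase, had a log2 difference of -0.26 under GFP (adjusted p = 0.0523) and -0.02 under JP2NT (adjusted p = 0.904). The peroxisomal Acot8 and the lysosomal Ppt1 differed by -0.07 (adjusted p = 0.726) and -0.05 (adjusted p = 0.536) under GFP. Acot4 and Acot6, both of the chromosome 12 cluster, differed by -0.46 (adjusted p = 0.461) and -0.59 (adjusted p = 0.267), at group means of 7.28 to 15.1. Acot5, Acot10, Acot12, Them5, Baat and Olah were too low to test.

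The thioesterases' substrate is made by acyl-CoA synthetases. Of 18 acyl-CoA synthetase and acyl-CoA binding genes tested, 10 were lower and 3 higher under GFP, where 24.8% of all genes were lower and 23.2% higher, and the median log2 difference was -0.40 against -0.01 for all genes. Under JP2NT 8 were lower and 3 higher, where 15.7% of all genes were lower and 16% higher, and the median was -0.34. Acsl1, the main long-chain acyl-CoA synthetase of the heart, went from 19389 ± 305 to 9086 ± 945 under GFP (2.14-fold; adjusted p = 7.40e-07). Acsm5, a mitochondrial medium-chain synthetase, fell 4.02-fold and Slc27a1, a fatty acid transport protein with synthetase activity, fell 1.79-fold (adjusted p = 1.08e-05 and 0.000398). Slc27a3 was among the 3 that rose, from 10.0 ± 3.54 to 21.2 ± 9.51 under GFP (adjusted p = 0.0433), and was not called under JP2NT (log2 difference 0.66; adjusted p = 0.248). The other two were Acsl4, a synthetase that prefers arachidonate, and Acbd3, a Golgi acyl-CoA binding protein, named after their values were seen.

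Coenzyme A is the other product of these enzymes. Of 14 genes of its synthesis and breakdown, 7 were lower and 2 higher under GFP (median log2 difference -0.28), where 48% of all genes were called. Under JP2NT 5 were lower and 2 higher (median -0.13), where 31.8% of all genes were called. Slc25a42, which carries coenzyme A into mitochondria, fell 2.98-fold and Pank1, a kinase of the first step of its synthesis, fell 2.03-fold under GFP (adjusted p = 1.34e-06 and 8.64e-08). Dcakd, named for its likeness to the kinase of the last step, fell 1.85-fold under GFP (adjusted p = 0.000124) and was not called under JP2NT (log2 difference -0.32; adjusted p = 0.133). Enpp1, an ectonucleotide pyrophosphatase, rose 2.73-fold (adjusted p = 6.31e-06). The other gene that rose was Pank3, a pantothenate kinase too, named after its value was seen. Pank1 was the only gene of the list called between the vectors in TAC hearts, at 422 ± 14.2 in TAC+GFP and 515 ± 22.3 in TAC+NT (n = 4 each; log2 difference 0.28; adjusted p = 0.0123), still below the shams.

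Because Acot1 and Acot2 are textbook PPAR alpha targets, other such targets are given beside them. Of 28 further PPAR alpha target genes tested, 22 were lower and none higher under GFP, where 24.8% of all genes were lower, with a median log2 difference of -0.67. Under JP2NT 24 were lower and none higher, where 15.7% of all genes were lower, with a median of -0.65. Ucp3, a mitochondrial carrier, fell 5.52-fold under GFP (adjusted p = 8.82e-06) and 4.64-fold under JP2NT (adjusted p = 0.000247). Angptl4, an inhibitor of lipoprotein lipase, and Ehhadh, of peroxisomal oxidation, had log2 differences of -1.92 and -1.74 under GFP (adjusted p = 0.00321 and 9.53e-06). No member of the list fell as far as Acot1, but Acot1 was picked for its steep fall, so this says nothing about the list. In TAC hearts Cpt2, the inner-membrane carnitine palmitoyltransferase, was the only one called between the vectors (log2 difference 0.36; adjusted p = 0.0316), named after its value was seen. The list was chosen with earlier results known, and whether PPAR alpha had a part in any of these falls was not tested.

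**Figure D4:**
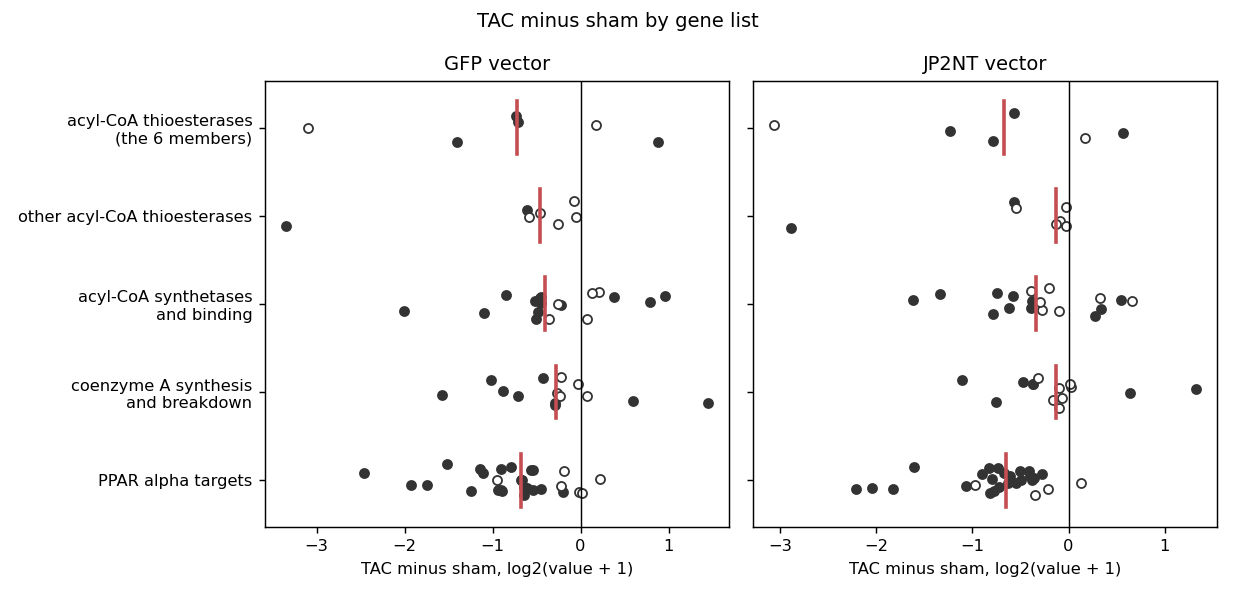
Difference of log2(value + 1) between TAC and sham for each tested gene of 5 lists, under GFP (left) and JP2NT (right); filled points passed the test, open points did not, except that the open point of Acot1 (the lowest of the 6 members) was not tested, and red lines are list medians. The medians of the PPAR alpha targets, -0.67 and -0.65, lie lower than those of the synthetases, -0.40 and -0.34.

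The ventricles hold several cell types, and in such bulk RNA fewer cells of a type and less RNA per cell cannot be told apart. The libraries carried all 14 cardiomyocyte markers, none at 0. The summed value of these markers was 1286710 to 1332590 in sham samples, 791448 to 923768 in TAC+GFP and 871776 to 1091180 in TAC+NT, highest in replicate 4. The list includes the myosin gene Myh6, so the sum in part follows that 1 gene. Myh6 took 3.93 to 4.37% of the total in sham libraries and 1.32 to 1.86% in TAC+GFP. In TAC+NT it took 1.75 to 3.07%, also highest in replicate 4. Under GFP 7 of the 14 were lower and 1 was higher, the last being Ttn, where 48% of all genes were called. Call counts from here on are under GFP unless another vector is named. Of 12 fibroblast markers 7 were higher and 2 lower, with sums of 29218 to 35644 in shams, 31616 to 40441 in TAC+GFP and 32975 to 36974 in TAC+NT. Under JP2NT only Lum, Col1a1 and Mfap5 were higher and only Gsn lower, where 31.8% of all genes were called. Of 10 mural cell markers 1 was higher and 6 were lower, yet their sum, 45200.4 to 47009 in shams, was 46145 to 57357 in TAC+GFP and 40512 to 44378 in TAC+NT. Of 10 endothelial markers 1 was higher and 4 were lower, with sums of 20040.2 to 23183 in shams, 17959 to 21475 in TAC+GFP and 17735 to 20462 in TAC+NT. Of 12 macrophage markers 1 was higher and 2 were lower, with sums of 4882 to 5408 in shams, 5248 to 6606 in TAC+GFP and 3931 to 7291 in TAC+NT. Neuron and Schwann cell markers are of interest for Acot7. Of 7 tested, 2 were higher and 3 lower under GFP, while the sum over the list of 14 stood at 683 to 833 in TAC+GFP and 494 to 559 in TAC+NT against 381 to 428 in shams. In that list Th was at 0 in all Sham+GFP samples, and Snap25 and Elavl4 were at 0 in all Sham+NT samples. None of 8 adipocyte and 5 atrial markers tested was called. The summed adipocyte value, of interest for Acot11, was 3588 to 4186 in TAC+GFP and 2805 to 2972 in TAC+NT replicates 1 to 3, but 5254 in replicate 4, with the shams at 4385 to 4812. The summed atrial value ranged from 552 to 11609 over all samples. The part of these shifts in the thioesterase values was not tested.

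Outside the family, the transcripts whose log2 values followed Acot1 most closely over the 13 samples were Nbas, Got2, Mlycd, Oat and Agpat3, with Pearson r from 0.987 to 0.990. Within the 8 TAC samples alone r was 0.903 to 0.945 for these 5 genes. Under GFP their log2 differences were -0.68 for Nbas, -0.60 for Got2 (the mitochondrial aspartate aminotransferase) and -1.10 for Mlycd (malonyl-CoA decarboxylase). They were -0.40 for Oat (ornithine aminotransferase) and -0.95 for Agpat3. The closest to Acot2 were Eci2, Retsat and Mcat (r 0.989 to 0.990), and among the closest to Acot7 were Agpat3 and Btbd2 (both 0.982). The closest to Acot9 were Cfl2, Sprr1a and Tgfb2 (0.967 to 0.977). Sprr1a, a gene of cornified epithelium, was listed at 0 in Sham+NT and had means of 309 ± 165 in TAC+GFP and 48.0 ± 36.7 in TAC+NT. Tgfb2, a TGF-beta ligand, had means of 141 ± 11.1, 496 ± 88.7, 138 ± 27.7 and 317 ± 70.9 in Sham+GFP, TAC+GFP, Sham+NT and TAC+NT. The closest to Acot11 were Vps8, Itgb1bp2 and Slc4a3 (0.972 to 0.974). Acot13 was followed most closely by Atp5mpl, Rps13 and Uqcr10 (0.925 to 0.936), small subunits of ATP synthase, the ribosome and respiratory complex III. These are the highest values among 13258 genes in samples that differ mainly by surgery, and they are given as a description.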

How the data were processed

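The 14 libraries, in 4 groups, were paired-end and strand-marking, made from polyadenylated RNA of mouse ventricles. Per the submitters' processing notes, FastQC 1.0.0, STAR 2.6.1a and Salmon were used with build mm10; which annotation and scaling software served is not given in the sources used here. Deposited values are in the unit signal: gene counts that the authors had scaled separately within the 7 GFP and the 7 JP2NT libraries, as the values show. Divided by the value of 1 read, 1.17% of them lie within 0.001 of a whole number, so whole reads cannot be recovered and a count test was not used.

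Genes reaching 10 in 3 or more libraries were kept, 13258 of the 18188 above 0. Values were rescaled jointly by unweighted trimmed means of ratios (trimming 30% of ratios and 5% of levels), 1 was added and log2 taken. Fold changes are on that log2(value + 1) scale, which understates changes of low genes. limma-trend (limma 3.58.1, R 4.3.3) was fitted with a mean per group over 13 samples and 1 spread for all groups (9 residual and 5.72 prior degrees of freedom). A gene was called at a two-sided Benjamini-Hochberg adjusted p under 0.05 over all genes in each of 5 comparisons. The fit was also run on simulated data with the same spread in every group, so that run does not bear on unequal spreads. Transcript words, coding identity and motifs were computed in Python 3.11.15 with Biopython 1.88. Alternatives were other pseudocounts, filters, scalings, groupings, spreads and left-out libraries.

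The members, gene lists and markers were chosen with earlier results of these data known. All members are named, and from each list up to 4 called genes with the largest change under GFP, besides every other thioesterase tested. Likeness names the 5 closest genes for Acot1 and 3 for each other member. A few genes that these rules name are not reported here. Counting error limits the low values of Acot1 and Acot3 in TAC hearts. Promoter windows come from RefSeq (GRCm38.p6), where 5 of the 6 members were matched; Acot13 was not.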

Additional observations from a re-analysis of the deposited data

Results flagged for a closer look

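In each TAC group of 4 libraries, the gap between the highest or lowest value and its neighbour was set against the range of the group, with a limit that chance passes in about 1 of 20 groups. Of 12 groups examined, 4 passed it. The groups are the same libraries seen gene by gene, so they are not independent and the count is not set against chance. Acot1 and Acot2 followed each other within the TAC samples (Pearson r 0.887). Acot1 had a value of 15.2 in TAC+GFP replicate 3, with the other 3 at 42.1 to 46.4. TAC+NT replicate 4 was highest for 3 genes: it had 73.8 for Acot1, with the others at 26.6 to 30.8, 551 for Acot2, with the others at 418 to 421, and 475 for Acot11, with the others at 267 to 299.6. In that library Myh6, which encodes the fast myosin of the adult ventricle, took 3.07% of the total, where the other TAC+NT libraries had 1.75 to 2.18% and the shams 3.93 to 4.37%. In TAC+GFP replicate 3, Myh6 was at 1.86%, the highest of its group.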

How the results depend on the processing

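Of 724 recomputed differences of the 6 members, 691 kept their direction and side of the threshold, none lost a call, 1 gained a call, 2 moved and 30 reversed, the reversed ones being uncalled before and after. Part of the 724 could not change direction: leaving out a library of a group not compared touches only the shared spread. The 691 therefore overstate how far the differences were put to the test. Acot2, Acot7, Acot9 and Acot11 were called in both TAC comparisons under all 24 alternatives. The 2 that moved were those of Acot1 once summed with Acot2, -1.62 under GFP and -1.49 under JP2NT.

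Between the vectors in TAC hearts, the values as deposited called 1 member, Acot9 (-0.39, adjusted p = 0.0297), and turned Acot2 to -0.043 and the Acot1 and Acot2 sum to -0.036; leaving out single libraries gave -0.26 to 0.25 for Acot1, -0.14 to 0.16 for Acot2 and -0.15 to 0.16 for the sum (negative without TAC+GFP replicate 3 or TAC+NT replicate 4). In sham hearts Acot1 turned to -0.0094 as deposited and -0.089 when summed; Acot9 turned to -0.072 as deposited and -0.031 with 14 separate libraries; leave-one-out ranges were -0.055 to 0.0065 for Acot7 and -0.10 to 0.11 for Acot9. For the interaction, leave-one-out ranges were -0.33 to 0.19 for Acot1, -0.012 to 0.28 for Acot2, -0.26 to 0.022 for Acot11 and -0.099 to 0.092 for Acot13. With TAC replicates 1 and 2 averaged Acot11 turned to 0.0036, and with 14 separate libraries Acot13 turned to 0.014. The cause was not tested.

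Over all genes, 4215 were called between TAC+NT and Sham+NT, and 1859 to 4978 with a library left out; 1859 was without Sham+NT replicate 3, which leaves that group 1 sample, assumed to vary like the others. Between the vectors in TAC hearts 814 were called (363 higher, 451 lower), 1415 as deposited (225 higher, 1190 lower), 413 with a spread per group, 167 with only the compared groups (51 higher, 116 lower), 158 with TAC replicates 1 and 2 averaged, and 268 to 1067 with a library left out (377 and 268 without TAC+GFP replicates 1 and 2, 502 and 444 without TAC+NT replicates 1 and 2). In sham hearts 0 were called, 2 with only the compared groups, and 0 to 1 with a library left out, the 1 without Sham+GFP replicate 3. For the interaction 10 were called, 6 without the filter, 127 with 14 separate libraries, 78 with a spread per group, 4 with TAC replicates averaged, and 0 to 53 with a library left out: 0 without Sham+NT replicate 3, 50 and 17 without TAC+GFP replicates 3 and 4, 53 without TAC+NT replicate 3, and 3 to 6 without any of Sham+GFP replicates 1 to 3, TAC+GFP replicates 1 and 2 or TAC+NT replicate 2.

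Replicate numbers did not pair the samples: over 19 same-numbered pairs the median correlation of deviations was 0.01, none exceeded 0.1, and 1 of 14 libraries correlated best with its own number. With the replicate number as a block, on 14 separate libraries, 77 genes were called for the interaction, and Acot9 in sham hearts and Acot13 in the interaction turned to -0.031 and 0.014; no call of a member changed.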
